A study of Rattus norvegicus with 8 samples.

Results

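The miR-29 family of the rat was measured in exosome-rich RNA from serum. Its members were taken by name, as every arm of rno-miR-29a, rno-miR-29b and rno-miR-29c on the array, which gave 7 of 719 rat miRNAs. An arm is the strand of the hairpin precursor from which the mature miRNA is cut. The 3p arms are rno-miR-29a-3p, rno-miR-29b-3p and rno-miR-29c-3p, and all 3 were detected on every array. The other 4 members are 5p arms, of which 2 were detected on some array.

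The samples came from male specific-pathogen-free Wistar rats. There were 4 samples from sham-operated controls, replicates 1 to 4, and 4 samples with acid reflux esophagitis (RE), replicates 5, 8, 9 and 10. RE was set up by surgery that narrowed the outlet of the stomach and tied it where the forestomach meets the glandular part, so that gastric contents flowed back into the esophagus. The RE samples were taken on day 21, and the same day for the controls comes from the study's methods, as the labels give none. No drug is named for either group, and ages are not given in the sources used here. The arrays show the miRNA in a serum precipitate from the whole animal, so that fewer vesicles and less miRNA per vesicle cannot be told apart. Whether the samples of a group come from different rats is not given in the sources used here, so the spread behind each p-value is that between samples and may be technical.

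The mature miR-29 miRNAs guide the silencing machinery to mRNAs that pair with their seed, the bases next to the 5′ end. The family is known for targets that encode extracellular matrix proteins, such as collagens, elastin and fibrillin, and is known to fall when TGF-beta signalling promotes fibrosis in heart, kidney and liver. The members are cut from 2 pairs of neighbouring hairpins. Serum miRNAs travel in vesicles, in lipoproteins and with proteins.

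The sequences of the 3p arms show what the members share and how the array can tell them apart. They are from RefSeq on the build GRCr8, with the seed (bases 2 to 8) in capitals.
miR-29a-3p: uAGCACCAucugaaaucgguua
miR-29b-3p: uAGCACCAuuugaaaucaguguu
miR-29c-3p: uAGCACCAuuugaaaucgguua
The seed is the same in all 3, and among 693 rat mature miRNA names in the RefSeq table no other name carries it. Outside the seed the members differ at few positions, counted from 1 at the 5′ end, with the base of the starting member before the position and that of the other member after it. From miR-29a-3p to miR-29c-3p the change was C10U alone. From miR-29a-3p to miR-29b-3p the changes were C10U, G18A, U21G and A22U, and miR-29b-3p is also longer at the 3′ end, with 23 bases against 22. From miR-29c-3p to miR-29b-3p they were G18A, U21G and A22U.

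miR-29a-3p comes from the minus strand of chromosome 4 (chr4:60617968-60617989, GRCr8), in the hairpin Mir29a. The hairpin Mir29b1 lies 291 bases from it on the same strand and holds a copy of miR-29b-3p (chr4:60618342-60618364). The other copy of miR-29b-3p (chr13:109098882-109098904) and miR-29c-3p (chr13:109099412-109099433) lie on the plus strand of chromosome 13, in the hairpins Mir29b2 and Mir29c, which are 447 bases apart. The copies of miR-29b-3p are identical, so a signal for it can come from either locus.

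Each miRNA was read by 20 spots. Each 3p arm had 2 probes that end at different bases, and the longer probe of each is given here because these letters separate the members. The probes are DNA, written 5′ to 3′, with the positions that differ between members in capitals.
miR-29a-3p, 20-base probe: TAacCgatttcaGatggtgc
miR-29b-3p, 22-base probe: AACacTgatttcaAatggtgct
miR-29c-3p, 22-base probe: TAacCgatttcaAatggtgcta
Against miR-29c-3p the miR-29a-3p probes have 1 mismatch, and so do the miR-29c-3p probes against miR-29a-3p. The miR-29b-3p probes have 5 mismatches to miR-29a-3p and 4 to miR-29c-3p, counting base 23, which those members lack. How far 1 member binds the probes of another was not tested. The brightness of a probe also depends on its own sequence, and the levels of different members were therefore not ranked.

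The 8 arrays sat on 1 slide and were scanned once. The controls lay in the first row of the slide and the RE samples in the second row, so slide row and group cannot be told apart. Between 212 and 232 miRNAs were detected in the controls. In RE replicates 5, 8, 9 and 10 there were 245, 229, 144 and 197, and replicate 9 stood apart from the other arrays. Each array was scaled by the 75th percentile of its total signals over the 144 miRNAs detected on all 8 arrays. This percentile lay between 494 and 915 in the controls and was 1052, 1080, 239 and 442 in RE replicates 5, 8, 9 and 10. Values after scaling are given as log2 of the signal over the percentile.

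Before scaling, miR-29a-3p had total signals of 2882, 2599, 2267 and 3929 in control replicates 1 to 4. In RE replicates 5, 8, 9 and 10 the signals were 6126, 6302, 713 and 1484. RE replicates 5 and 8 were above every control and replicates 9 and 10 below every control. These are also the arrays whose 75th percentiles were above and below every control. Measurement error on the array was small beside this spread, between 7.87% and 8.18% of the signal.

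**Figure D1:**
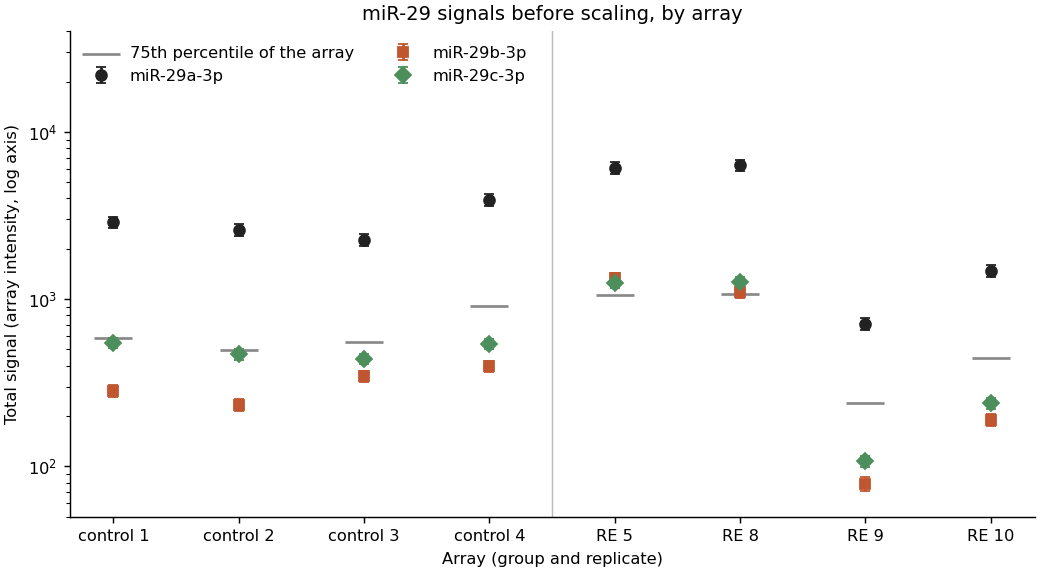
Total signal of the 3p arms on each array before scaling (log axis), with the error given by the feature extraction software and the 75th percentile of the array as a grey line; the heights of different members are not comparable. For all 3 members the signals of RE replicates 5 and 8 were above, and those of replicates 9 and 10 below, every control, and the 75th percentile moved the same way.

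Scaling narrowed the spread of miR-29a-3p and left the RE samples on the same sides of the controls. Its log2 scaled signals were 2.30, 2.40, 2.02 and 2.10 in the controls and 2.54, 2.54, 1.58 and 1.75 in RE replicates 5, 8, 9 and 10. The controls thus lay inside the range of the RE samples, with 2 RE arrays above them and 2 below. The control mean was 2.21 ± 0.17 (SD, n = 4), and the RE mean 2.10 ± 0.51 (SD, n = 4). The log2 fold change of -0.10 (standard error 0.33) had an adjusted p of 0.941 from limma, and the two-sided exact permutation test gave p = 0.657. The 95% interval ran from 0.555-fold to 1.56-fold. The sign turned under several settings, with values of 0.19 without RE replicate 9 and 0.014 without RE replicate 10.

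miR-29b-3p, which shares the seed but is longer, had total signals of 283, 234, 345 and 396 in controls. In RE replicates 5, 8, 9 and 10 they were 1337, 1097, 78.9 and 190. RE replicates 5 and 8 were above the brightest control and replicates 9 and 10 below the dimmest. After scaling, the log2 signals were -1.04, -1.08, -0.69 and -1.21 in controls and 0.35, 0.022, -1.60 and -1.22 in RE. The last RE value, replicate 10, lay within the array error of the lowest control, while replicates 5 and 8 were 2.55-fold and 2.04-fold above the control mean. The control mean was -1.01 ± 0.22 (SD, n = 4), and the RE mean -0.61 ± 0.94 (SD, n = 4). The log2 fold change of 0.39 (standard error 0.47) did not pass, with an adjusted p of 0.912 from limma and an exact permutation p of 0.429. The 95% interval ran from 0.631-fold to 2.73-fold. Its sign stayed positive when any 1 array was left out, between 0.074 without RE replicate 5 and 0.84 without RE replicate 9.

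miR-29c-3p, which differs from miR-29a-3p at position 10 alone, had total signals of 547, 467, 440 and 540 in controls. In RE replicates 5, 8, 9 and 10 they were 1251, 1269, 107 and 238. The RE samples again fell on both sides of the controls. After scaling, the log2 signals were -0.094, -0.079, -0.34 and -0.76 in controls and 0.25, 0.23, -1.16 and -0.89 in RE. The control mean of -0.32 ± 0.32 (SD, n = 4) and the RE mean of -0.39 ± 0.74 (SD, n = 4) were closer to each other than either SD. The log2 fold change was -0.073 (standard error 0.41) with an adjusted p of 0.960 from limma and an exact permutation p of 0.857. The 95% interval ran from 0.499-fold to 1.81-fold. The value was 0.30 without RE replicate 9 and 0.0020 without control replicate 1, and its direction is therefore not settled.

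**Figure D2:**
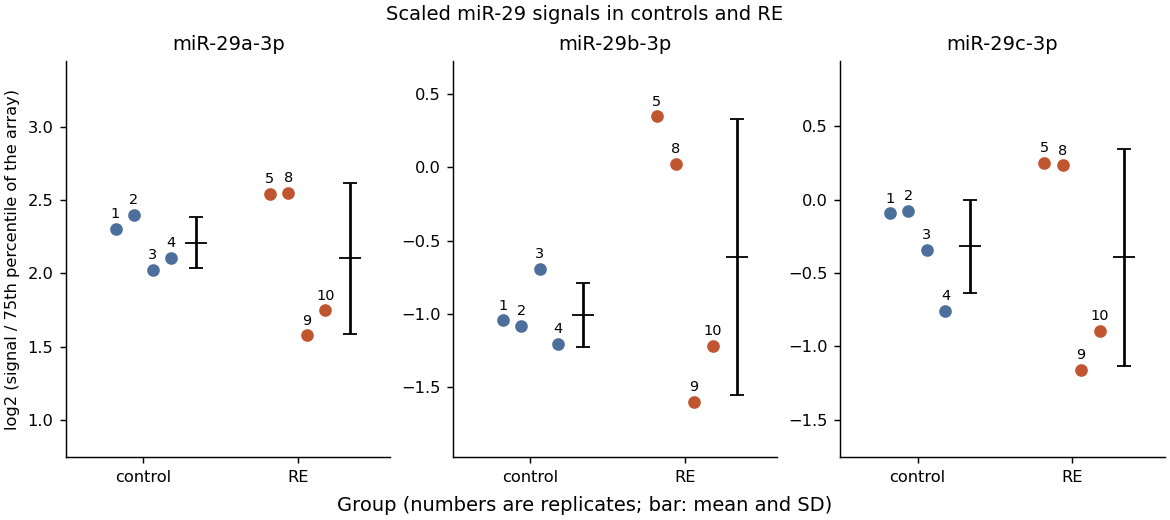
Log2 of the scaled signal of miR-29a-3p, miR-29b-3p and miR-29c-3p in 4 controls and 4 RE samples (points, with replicate numbers), with the mean and SD beside them; the vertical axes span the same number of log2 units. In each panel RE replicates 5 and 8 were the highest points and replicates 9 and 10 the lowest.

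None of the 3 members passed limma at an adjusted p under 0.05, and none had an unadjusted p under 0.05. The smallest p that the exact test can give with 4 arrays against 4 is 0.0286. Of the 192 miRNAs tested, 2 were lower in RE (1.04%) and 0 were higher (0%), and the lower ones were miR-208a-3p and miR-455-5p. The filter favours lower calls, and over the 144 miRNAs detected on all 8 arrays limma called 0, with 1 lower and 0 higher at an unadjusted p under 0.05. Without adjustment, 5 had a limma p under 0.05 and were lower and 0 were higher, and the methods' t-test and analysis of variance on the same values each gave 3 lower and 0 higher. These counts depend on single arrays and weights, with 19 lower and 0 higher without RE replicate 10, and 50 lower and 6 higher with array quality weights. The median log2 fold change of all tested miRNAs was -0.29. It is pulled down by 48 miRNAs that entered through the controls alone, as all 48 were at the floor in RE replicate 9. Over the 144 miRNAs detected on all 8 arrays the median was -0.19, and the members stood above it by 0.090 for miR-29a-3p, 0.59 for miR-29b-3p and 0.12 for miR-29c-3p. Only 6 tested miRNAs had a higher log2 fold change than miR-29b-3p, a place that its standard error does not secure.

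**Figure D3:**
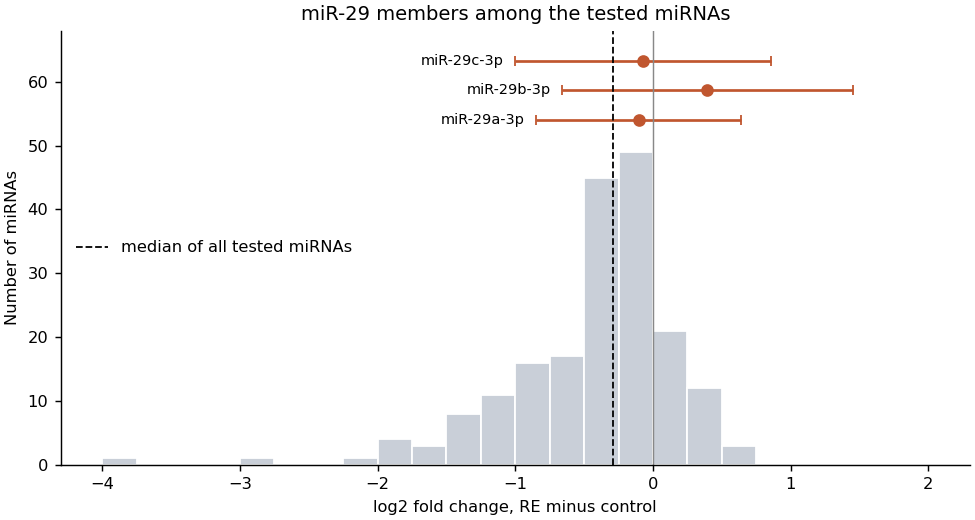
Log2 fold changes (RE minus control) of the 192 tested miRNAs as a histogram, with the 3 members and their 95% intervals above it and the median of -0.29 as a dashed line. Each of the 3 intervals covers 0 and the median.

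The arrangement of the RE samples around the controls was not limited to the members. With any 2 RE arrays above every control and the other 2 below, there were 20 (10.4%) of the tested miRNAs. Of these, 15 were among the 144 detected on all 8 arrays. The next count fixes the replicates on each side as they lay for the members. Of the 192 tested, 10 (5.21%) had RE replicates 5 and 8 above every control and replicates 9 and 10 below every control, and 3 of the 10 were the miR-29 members. The others were miR-27a-3p, miR-142-5p, miR-101a-3p, miR-101b-3p, miR-324-5p, miR-331-3p and miR-872-5p, named after their values were seen. Of the 10, 5 were detected on all 8 arrays, the members with miR-27a-3p and miR-142-5p, and the rest were at the floor on some array. These 5 were 3.47% of the 144 miRNAs detected on all 8 arrays. RE was the more variable group for each member, with SDs 2.97, 4.30 and 2.32 times those of the controls for miR-29a-3p, miR-29b-3p and miR-29c-3p. The SD was larger in RE for 139 (72.4%) of the tested miRNAs, and for 95 (66.0%) of the 144 detected on all 8 arrays, as the members were. For complete separation of the groups the background was 3 of 192 miRNAs (1.56%), and no member was among them.

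The ratio of 2 members within an array does not depend on the factor that scales the array. It compares how the signals of 2 members differed between the groups. As binding of 1 member to the probes of another was not tested, it cannot show that their levels changed alike. The log2 ratio of miR-29b-3p to miR-29c-3p was -0.95, -1.0, -0.35 and -0.45 in the controls and 0.096, -0.21, -0.44 and -0.33 in RE replicates 5, 8, 9 and 10. RE samples lay high in this ratio, with 3 of 4 above every control, replicate 10 only narrowly, and replicate 9 inside the control range. The means were -0.69 ± 0.34 (SD, n = 4) and -0.22 ± 0.23 (SD, n = 4). The difference of 0.47 (standard error 0.20), or 1.38-fold, had a two-sided exact permutation p of 0.0571, unadjusted for the 3 ratios computed, and did not pass. With 1 array left out the exact permutation p ran from 0.0286 without control replicate 3, where the difference was 0.58, to 0.171 without RE replicate 5, where it was 0.36, or RE replicate 8, where it was 0.46.

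The log2 ratio of miR-29b-3p to miR-29a-3p was -3.35, -3.48, -2.72 and -3.31 in controls. In RE replicates 5, 8, 9 and 10 it was -2.20, -2.52, -3.18 and -2.97. All 4 RE values were above the control mean, and 2 of 4 were above control replicate 3, the highest control. The difference of 0.50 (standard error 0.28) had an exact permutation p of 0.143. miR-29c-3p to miR-29a-3p, the pair that differs by a single base, gave -2.40, -2.48, -2.36 and -2.86 in controls and -2.29, -2.31, -2.73 and -2.64 in RE. The group means of this ratio, -2.53 ± 0.23 and -2.49 ± 0.23 (SD, n = 4), differed by 0.031 (standard error 0.16) with an exact permutation p of 0.886, and the sign turned with the shorter miR-29a-3p probe, on median spot signals, after quantile normalization, and without control replicate 4, RE replicate 5 or RE replicate 8. Among all 10296 ratios between miRNAs detected on all 8 arrays, 1.14% separated the groups completely, and none of the 3 ratios did. A larger difference in either direction than that of miR-29b-3p to miR-29c-3p was found in 30.1% of these ratios.

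**Figure D4:**
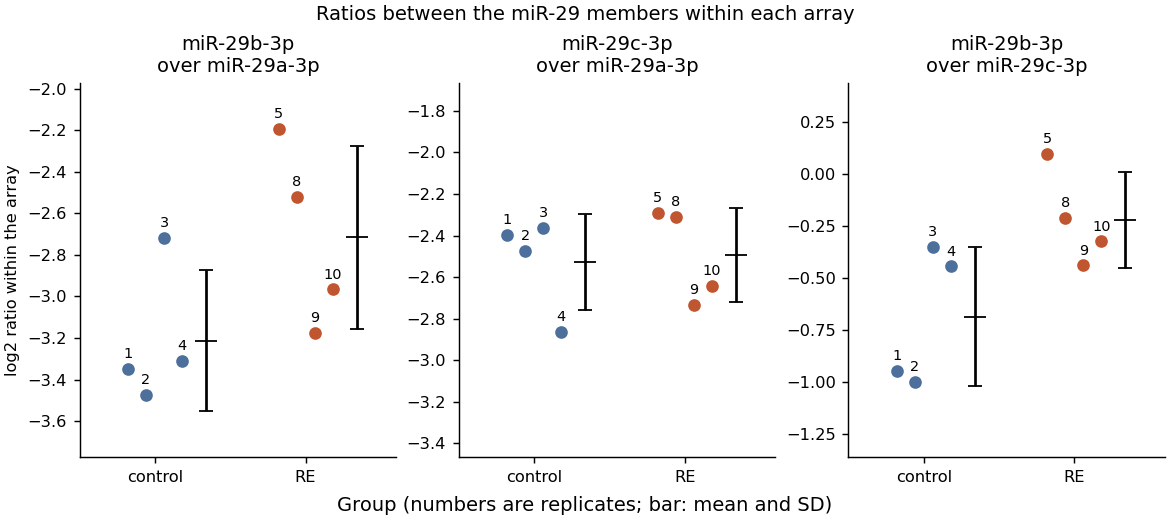
Log2 ratio of each pair of members within an array, for 4 controls and 4 RE samples (points, with replicate numbers), with the mean and SD beside them; the vertical axes span the same number of log2 units. In the ratio of miR-29b-3p to miR-29c-3p, 3 of 4 RE samples were above every control; in the other ratios 2 of 4 were.

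The probes of a miRNA were also compared singly. For miR-29b-3p the group difference was 0.44 on the 21-base probe and 0.38 on the 22-base probe. For miR-29c-3p it was -0.092 and -0.056. The miR-29a-3p probes disagreed in sign, with 0.063 on the 19-base probe and -0.16 on the 20-base probe. The difference in the ratio of miR-29b-3p to miR-29c-3p lay between 0.43 and 0.53 over the 4 pairs of single probes, a choice added after the data were seen, and its exact permutation p lay between 0.0286 and 0.143.

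The signals of the members varied together over the 8 arrays. For miR-29a-3p and miR-29c-3p, Pearson's r of the log2 scaled signals was 0.957 (exact permutation p = 0.000149, adjusted p = 0.000446 over the 3 pairs) and Spearman's rho 0.952 (exact permutation p = 0.00114, adjusted p = 0.00342). For miR-29b-3p and miR-29c-3p, neighbours on chromosome 13, r was 0.838 (exact permutation p = 0.00744, adjusted p = 0.0112) and rho 0.905 (p = 0.00456, adjusted p = 0.00685). For miR-29a-3p and miR-29b-3p, neighbours on chromosome 4, r was 0.775 (exact permutation p = 0.0246, adjusted p = 0.0246) and rho 0.810 (p = 0.0218, adjusted p = 0.0218). Without the 2 arrays farthest from the median of the first member, r was 0.884, 0.736 and 0.677 in the same order. Those were RE replicates 9 and 10 for both pairs with miR-29a-3p, and RE replicates 5 and 8 for miR-29b-3p and miR-29c-3p. Each group, and so each slide row, held 4 arrays, too few for an r of its own. The controls did not all follow the shared pattern. Among them replicate 3 was the lowest for miR-29a-3p (2.02) and the highest for miR-29b-3p (-0.69). With the values centred on the group means, an alternative added after the data were seen, r was 0.960, 0.911 and 0.879 in the same order. Permuting the pairings within groups then gave exact p = 0.0243, 0.0781 and 0.188 (adjusted p = 0.0729, 0.117 and 0.188 over the 3 pairs). None of the correlations passed after adjustment in this test, which allows fewer permutations (576), while r was not lower than before centring.

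Members on an array share its RNA and its scaling factor, and binding of a member to the probes of another was not tested. Over all pairs of miRNAs detected on all 8 arrays the median r was 0.076, and 2.58%, 10.5% and 14.4% of the pairs had a higher r than the 3 pairs above, in the same order. The scaled members also moved with the log2 75th percentile of the array, with r of 0.810 for miR-29a-3p, 0.786 for miR-29b-3p and 0.718 for miR-29c-3p over 8 arrays, where the median over the 144 miRNAs was -0.16. The part of array brightness in the shared pattern was not tested.

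The 5p arms are the strands that are mostly discarded when the hairpin is cut. miR-29a-5p and miR-29b-2-5p were not detected on any array. The 2 arms with a signal are written here with bases 2 to 8 in capitals, and neither has the seed of the 3p arms.
miR-29b-1-5p: uUUCAUAUggugguuuagauuu
miR-29c-5p: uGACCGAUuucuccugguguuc
miR-29b-1-5p was detected in control replicate 1 alone, with a total signal of 20.9. miR-29c-5p was detected in RE replicates 5 and 8 alone, with 11.3 and 9.23, all of it from the 21-base probe. That probe also had signals between 4.15 and 6.67 in the controls that the software did not call. After scaling these were -6.57, -6.90, -6.44 and -7.10 in controls and -6.54, -6.87, -7.58 and -6.52 in RE replicates 5, 8, 9 and 10, so the arrays with a detection lay inside the control range. The lowest signals of a detected miRNA on these arrays were 3.78, 3.68 and 3.81. With so few detections no 5p arm was tested, and no fold is given.

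The 5 other miRNAs whose pattern was most like that of the family were found by the mean of their r with the 3 members, over the 8 arrays, among the 141 other miRNAs detected on all of them. They were miR-27a-3p with a mean r of 0.864, miR-130a-3p with 0.830, miR-142-5p with 0.822, miR-34a-5p with 0.790 and miR-20a-5p with 0.712, while the median of the 141 was -0.080. miR-27a-3p is cut from the same precursor transcript as miR-23a and miR-24. Its log2 scaled signals were 2.02, 1.84, 1.55 and 1.75 in controls and 2.11, 2.04, 1.29 and 1.34 in RE, so that it fell on the same sides of the controls as the members. miR-142-5p, a miRNA of blood cells, had -1.54, -1.65, -1.29 and -1.32 in controls and -0.59, -1.04, -1.96 and -1.89 in RE. Its r was higher with miR-29b-3p (0.926) than with miR-29a-3p (0.773), and the difference between these was not tested. miR-34a-5p, a miRNA induced by p53, did not keep the arrangement, since RE replicate 10 with -3.51 lay inside the control range. None of the 5 passed the test between groups, with log2 fold changes between -0.095 and 0.16. As the 5 were chosen by likeness to the members on these same arrays, their group differences and placing around the controls are partly set by that choice.

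**Figure D5:**
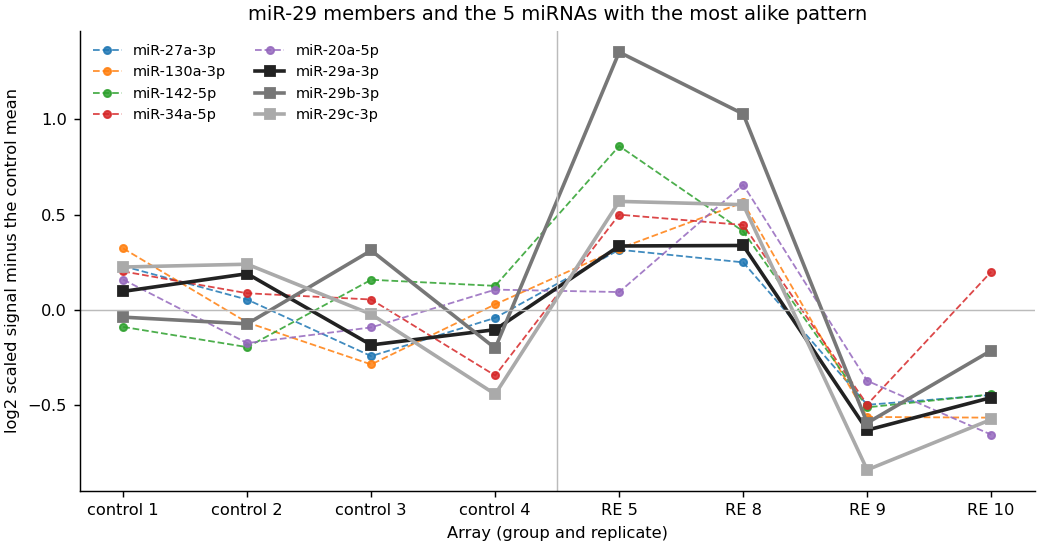
Log2 scaled signal minus the control mean on each of the 8 arrays for the 3 members (squares) and the 5 miRNAs with the most alike pattern (circles); lines only join the values of 1 miRNA. All 8 miRNAs lay above their control mean in RE replicates 5 and 8 and below it in replicate 9. The 5 were chosen by their r with the members on these arrays, which partly sets this likeness.

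A list of 24 other miRNAs with a known role in fibrosis or TGF-beta signalling was set beside the family. Of these, 23 were on the array and 17 were tested. At an adjusted p under 0.05 limma called 0 of the 17 higher and 0 lower, where 2 (1.04%) of all 192 tested were called lower. None had an unadjusted p under 0.05 by limma, the methods' t-test or the methods' analysis of variance. Their median log2 fold change was -0.23, between the medians of -0.29 over all tested miRNAs and -0.19 over the 144 detected on all 8 arrays. Of the 17, 15 were detected on all 8 arrays. Above 0 were 4 of the 17, and 36 (18.75%) of all 192 tested. miR-21-5p, which is raised in fibrotic tissue, had 1.43 ± 0.56 in RE and 1.13 ± 0.43 in controls (SD, n = 4), a log2 fold change of 0.30. miR-133b-3p, a muscle miRNA, had 0.030 ± 0.94 against 0.98 ± 0.38, a log2 fold change of -0.95. miR-26a-5p, found in many tissues, had 0.46 ± 0.38 against -0.054 ± 0.53, a log2 fold change of 0.51. Their adjusted p-values from limma were 0.912, 0.870 and 0.912. Of the listed miRNAs on the array, 3 were not detected on any array.

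Serum holds miRNAs of blood cells, liver and epithelium, and lists of these were measured on the same arrays. Of the 5 red blood cell miRNAs on the array, all were detected on all arrays and none passed the test. Their share of an array's summed signal ran from 6.98% to 14.7% in controls and from 6.88% to 14.8% in RE. Their brightest members, miR-451-5p, miR-16-5p and miR-92a-3p, had log2 fold changes of -0.16, -0.41 and -0.29. The other 2 of the 5 went the other way, up to 0.32, so the list did not lie on 1 side of 0. The log2 ratio of miR-23a-3p to miR-451-5p, a measure of red cell lysis, was -1.11, -1.60, -2.42 and -2.43 in controls and -0.96, -2.23, -2.04 and -2.20 in RE (exact permutation p = 1). RE replicate 5 (-0.96) was higher in this ratio than replicate 8 (-2.23) and the other RE samples, which lay close to replicate 8. On signals the ratio falls as miR-451-5p rises, and RE replicate 5 had the lowest log2 scaled miR-451-5p of all arrays (2.79). The relation of this ratio to the miR-29 values was not tested.

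Of the 8 platelet miRNAs listed, 5 matched an array name. None of the 5 passed the test, and their share ran from 4.92% to 7.21% in controls and from 4.17% to 8.42% in RE. miR-24-3p, miR-22-3p and miR-223-3p, the brightest of the 5, had log2 fold changes of -0.24, -0.29 and 0.16. The array's miR-126a-3p, miR-126a-5p and miR-191a-5p were not matched to the listed miR-126-3p, miR-126-5p and miR-191-5p, and the share leaves them out. They did not pass, with log2 fold changes of 0.26, -0.79 and -1.13 (adjusted p of 0.927, 0.912 and 0.912 from limma). Of the 4 leukocyte miRNAs none passed either, and their share ran from 0.771% to 1.16% in controls and from 0.669% to 2.23% in RE. Among these miR-142-3p had a log2 fold change of 0.69, miR-150-5p of -0.26 and miR-342-3p of -0.47, so the brightest leukocyte miRNAs did not lie on the same side of 0. The liver miRNAs miR-192-5p and miR-122-5p, with log2 fold changes of -0.71 and -2.08 (standard error 0.36 and 1.08), did not pass. miR-122-5p was detected in 4 controls and 3 RE samples, so its value includes an array at the floor, and miR-194-5p was not detected. The share of this list ran from 0.119% to 0.320% in controls and from 0.111% to 0.157% in RE. Of the 6 epithelial miRNAs 3 were not detected on any array. The brightest, miR-203a-3p, was detected in 3 controls and 2 RE samples, and miR-141-3p and miR-200a-3p in 0 controls and 2 RE samples each, so none was tested. The part of blood cells in the miR-29 values was not tested.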

How the data were processed

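The authors precipitated exosomes from serum with ExoQuick, labelled the RNA with Cy3 and read single-colour Agilent rat miRNA arrays with Feature Extraction 10.10.1.1. The deposited intensity values had the background subtracted, and arrays were not scaled to each other. The software's total signal per miRNA was used, in which 0.1 stands for not detected. Signals were scaled to the 75th percentile of the 144 miRNAs seen on every array, and those under 0.00350, the lowest scaled value with a detection, were raised to it before log2. A miRNA entered limma 3.58.1 in R 4.3.3 (two-sided, Benjamini-Hochberg at 0.05) if every array of a group detected it, which left 192. Single values had exact permutation tests in Python 3.11.15. The limma fit was tested on simulated arrays with equal spread in both groups and changes larger than those of the members. The exact tests were checked only on simple values with a known answer. The number of arrays limits the precision: over the tested miRNAs the standard error had a median of 0.48 log2 units.

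The members and lists were chosen with earlier results of these data known. The miRNAs named are all family arms, the 5 with the most alike pattern, the 3 brightest members of each list, miR-23a-3p and the called miRNAs by name only. Other miRNAs that shared the members' arrangement around the controls were named after their values were seen. miR-486, miR-126-3p, miR-126-5p, miR-191-5p and miR-155-5p did not match an array name. The array's miR-126a-3p, miR-126a-5p and miR-191a-5p, whose names carry an added letter, are named beside the platelet list. Sequences were matched to RefSeq on GRCr8 for all 7 arms, and RefSeq's rno-miR-29b-5p was taken as miR-29b-2-5p because the probes match it. Alternatives covered signal, background, scaling, floor, filter, variance model, the methods' tests and leaving out each array. Samples measured by RT-PCR, esophageal tissue and other disease models were not analysed here.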

Additional observations from a re-analysis of the deposited data

Results flagged for a closer look

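miR-29c-5p, which entered no comparison, gave a total signal of 11.3 in RE replicate 5 and 9.23 in RE replicate 8, above its value in the controls, where it was listed as not detected on all 4 arrays. The controls had uncalled signals between 4.15 and 6.67 on the same probe, and after scaling RE replicates 5 and 8, with log2 values of -6.54 and -6.87, lay inside the control range of -7.10 to -6.44. The software's error of these signals was 22.5% and 27.6%. The same arrays had the highest 75th percentiles, 1052 and 1080. In 12 groups of 4 values, the scaled signals and the ratios of the 3p arms in each group, no array stood apart from the rest by Dixon's test, where chance gives about 0.6. The test looks for a single value far from the others, so it cannot detect RE arrays that split into a high and a low pair.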

How the results depend on the processing

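No paired analysis was possible because the groups share no replicate number. The methods' scaling divides by the 75th percentile over all miRNAs, which in RE replicate 9 is 0.1, the value of an undetected miRNA; it gave log2 fold changes of 1.59 for miR-29a-3p and 1.62 for miR-29c-3p, and 0.34 and 0.45 with that array left out, an alternative added after the data were seen. The median of all tested miRNAs was then 1.39 and 0.0016. In the same order, scaling by the median gave 0.11 and 0.14, by the summed signal 0.079 and 0.11, and array quality weights 0.22 and 0.33. Quantile normalization gave 0.057 for miR-29a-3p and normexp 0.025 for miR-29c-3p. None of these passed, and the cause was not tested. Across the 6 other scalings the median log2 fold change of all tested miRNAs ran from -0.42 with the labelling spike-in to 1.39. A factor for a whole array shifts all miRNAs alike, so a member's distance from that median says nothing of its stability. miR-29b-3p stayed positive under every setting run, from 0.074 to 2.09, and array quality weights gave it 1.06 (adjusted p = 0.1005 from limma), the lowest adjusted p of any member. Leaving out 1 array moved miR-29a-3p between -0.25 and 0.19 and miR-29c-3p between -0.29 and 0.30.

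For the ratios, the values given here are differences of the log2 ratio, RE minus control. The difference for miR-29c-3p to miR-29a-3p was -0.031 on median spot signals and -0.091 after quantile normalization. It was -0.16 and -0.12 with the 19-base miR-29a-3p probe, and between -0.082 and 0.11 with 1 array left out. The difference for miR-29b-3p to miR-29c-3p reached the smallest exact permutation p, 0.0286, with normexp (0.43) and with 1 pair of probes (0.47). It lay between 0.36 and 0.58 with 1 array left out. The correlation of miR-29a-3p and miR-29b-3p missed 0.05 with normexp (0.680, exact permutation p = 0.0583) and lay between 0.714 and 0.863 with 1 array left out, missing it without RE replicate 5 or 8. With values centred on the group means it was 0.879 (exact permutation p = 0.188), and that of miR-29b-3p and miR-29c-3p was 0.911 (exact permutation p = 0.0781), both then over 0.05, where pairings within groups allow fewer permutations. The count of called miRNAs was 2, and 0 with the other spot signals, the authors' value table, the methods' scaling, normexp and the filter to miRNAs detected on all 8 arrays, where limma gave between 0 and 6 lower and 0 higher at an unadjusted p under 0.05. It was 1 with the summed signal, no scaling, no filter, eBayes with trend, and the methods' tests with either correction, 3 with array quality weights, and between 1 and 2 with 1 array left out.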
